A study of Mus musculus with 52 samples.

Results

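Adenosine receptors and the enzymes and transporter that set the level of adenosine outside cells were followed through 52 mouse RNA libraries, 25 of brain and 27 of cultured astrocytes. The 10 genes were taken by name: the receptors Adora1, Adora2a, Adora2b and Adora3, the adenosine-forming enzymes Entpd1, Entpd2 and Nt5e, the adenosine-removing enzymes Adk and Ada, and the transporter Slc29a1. All 10 were present in each of the 4 tables, among 56783 genes listed in at least 1 of them. The series compared epileptic with untreated brain, and astrocytes loaded with lipid with untreated astrocytes, with and without Apoe, the gene of the lipid carrier apolipoprotein E. All mice were of strain C57BL/6. In a first cohort of the kainic acid (KA) model of temporal lobe epilepsy, 3 untreated and 3 KA-treated brains were sequenced, and 3 untreated and 3 CNO-treated brains came from a CNO-induced epileptic model, whose receptor transgene, if any, is not described in the labels. A second KA cohort had 3 untreated brains, 4 with KA, 3 with Apoe knocked out and KA, and 3 labelled as A2aR knock down with KA, A2aR being the product of Adora2a. The astrocyte cultures formed 9 groups of 3 libraries. Of the 5 wild-type groups, 1 was untreated, 1 received palmitic acid, 1 received oleic acid, and the last pair received medium of normal neurons or of neurons lacking Apoe. The 4 groups without Apoe were left untreated or received palmitic acid, oleic acid or neuronal medium. The titles of all libraries given neuronal medium carry the letters KA, as do titles of KA-treated brains. The sources used here do not give age, brain region, dose, duration, the knockdown's method or the cells it reached. Nor do they say that the libraries of a group are of different animals or cultures, so the p-values measure only how libraries spread, and that spread may be technical. The titles of 1 of the 3 untreated knockout libraries and 1 of the 3 knockout palmitic acid libraries carry the word mix, which is not explained.

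Cells release ATP, which ectonucleotidases on the cell surface cut stepwise to ADP, AMP and adenosine. Adenosine acts on A1 and A3 receptors, which couple to inhibitory G proteins, and on A2a and A2b receptors, which raise cyclic AMP. In the brain adenosine acting on A1 receptors dampens excitatory transmission and is known as an endogenous anticonvulsant, while astrocytes clear it mainly through adenosine kinase after uptake by equilibrative transporters. Adora2a is known for its high level in neurons of the striatum.

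Slc29a1 and Adora1 moved farthest in opposite directions when Apoe knockout and wild-type astrocytes were compared, so the sequence just before the first-listed start site of each is shown. In the RefSeq promoter table for GRCm38.p6, 9 of the 10 genes had an entry and Adora2a did not. Each sequence gives the 250 bases before the start, 5′ to 3′ on the gene's own strand, which is the minus strand for both, with the GC box letters GGGCGG, or their reverse complement, in capitals. The Slc29a1 sequence lies at chr17:45599619-45599868 and the Adora1 sequence at chr1:134235458-134235707.
Slc29a1: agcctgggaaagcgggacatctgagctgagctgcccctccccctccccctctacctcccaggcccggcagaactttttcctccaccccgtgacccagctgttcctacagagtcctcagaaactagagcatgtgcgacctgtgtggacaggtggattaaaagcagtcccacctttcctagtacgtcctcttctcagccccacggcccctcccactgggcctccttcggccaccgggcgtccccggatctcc
Adora1: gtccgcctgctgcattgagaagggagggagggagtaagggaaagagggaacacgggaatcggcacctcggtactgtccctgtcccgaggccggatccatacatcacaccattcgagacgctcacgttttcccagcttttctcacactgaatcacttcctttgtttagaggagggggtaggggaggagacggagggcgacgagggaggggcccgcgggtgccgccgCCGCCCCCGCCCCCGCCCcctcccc
The Adora1 sequence held 3 GC boxes end to end and the Slc29a1 sequence none. Of all 32851 promoters of this length, 32.7% held at least 1. Slc29a1 had 8 listed start sites and Adora1 had 2, and the deposited gene totals do not say which was used. The GC box contrast depends on the site: listed site 5 of Slc29a1 held 5 GC boxes and site 2 of Adora1 held 0. The cyclic AMP response element core TGACG was in neither sequence shown, was present at listed site 7 of Slc29a1, and was in 17.8% of all promoters.

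The second cohort was deposited as counts, 68760648 to 76643829 per library, and as TPM, a level scaled for transcript length and library total, while the other tables held TPM only, so their depth is unknown. Levels are given in TPM. In the cultures the 8 astrocyte markers summed to 1999 to 2252 TPM in untreated wild-type libraries and to 495.5 to 512.8 in untreated knockout libraries. The 9 mural and fibroblast markers, led by Acta2 and Tagln, summed to 7463 to 8157 and to 6225 to 6334 TPM in the same groups, so the cultures held other transcripts than those of astrocytes. Knockout libraries given palmitic acid stood apart, with astrocyte markers at 66.29 to 87.74 TPM and 12057 to 12915 genes at 1 TPM or more, against 13721 to 14652 in the other astrocyte groups. In the first brain cohort untreated library 3 stood apart from the other untreated libraries. In the second cohort untreated brains had Xist at 122 to 145 TPM and KA brains at 0.0255 to 0.272, so sex and KA cannot be told apart there. Sex-linked transcripts also differed between the astrocyte groups: Xist was at 30.7 to 36.8 TPM in untreated wild-type, 2.79 to 3.81 in untreated knockout and 0 to 0.05 in knockout with palmitic acid, and the Y-linked Ddx3y was at 14.9 to 19.1 in untreated wild-type, 31.3 to 33.5 in untreated knockout and 0.52 to 1.35 in wild-type with oleic acid. The part of this in the astrocyte results was not tested. Apoe was at 5.36 to 118 TPM in knockout and 2220 to 5020 TPM in wild-type astrocytes. In bulk libraries fewer cells of a type and less RNA per cell cannot be told apart.

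In brain, 1 change in 1 gene passed the test: Entpd1, the ectonucleotidase CD39, was higher with CNO. In astrocytes 9 of the 10 genes could be tested, of which 7 changed with oleic acid and 7 with palmitic acid in wild-type cells and 6 with loss of Apoe. Adora2a, among the 7 with oleic acid, passed the filter on low values only through astrocyte groups where it was high. Of all genes tested there, 59.8% changed with oleic acid, 59.8% with palmitic acid and 44.9% with loss of Apoe. A gene was called when its Benjamini-Hochberg adjusted p over all genes tested was under 0.05. None of 9 tested genes was called for KA in the first cohort, where 0.183% of all genes were called. An unadjusted p under 0.05 in limma was found for 5 of the 9 and for 2069 of all 15331 genes. Adora3, among the 5, passed the filter on low values through the KA libraries alone. All-gene calls there split into 24 higher and 4 lower, or 24 and 8 when scaled by median ratios, and that scaling took the median of all genes from 0.25 to -0.02. CNO called 1 of 8 higher, against 3.46% of all genes. In the second cohort edgeR called none of 10 for KA against untreated (0.0558% of all genes), for Apoe knockout with KA against KA (0.112%) or for the libraries labelled A2aR knock down against KA (0.0386%). Unadjusted p-values under 0.05 numbered 1, 0 and 2 among the members, and 1566, 2175 and 2156 among all 23318 genes. DESeq2 called none either in these 3 comparisons, which share the KA libraries.

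Medium from neurons called none of 9 genes in wild-type astrocytes, where 0.0371% of all genes were called. No member had an unadjusted p under 0.05 in limma there, against 1031 of all 16161 genes. Medium of neurons lacking Apoe, against that of normal neurons, called 1 lower (0.452% of all genes). In wild-type cells oleic acid called 2 members higher, where 31.2% of all genes were higher, and 5 lower (28.6%). Palmitic acid called 2 higher (26.8%) and 5 lower (33.1%). Loss of Apoe in untreated astrocytes called 2 higher (23.9%) and 4 lower (21.1%). In knockout astrocytes medium called 3 higher (18.7%) and 2 lower (12.6%), oleic acid 1 higher (21.7%) and 2 lower (20.1%), and palmitic acid 3 higher (19.9%) and 6 lower (55.4%). Adora2a counts among the members higher with oleic acid in wild-type and with palmitic acid in knockout. It was tested only through those 2 groups, where it was high. The comparisons against untreated cells share the untreated libraries of their genotype, and loss of Apoe uses those of both. With each fatty acid in wild-type cells the share of the 9 members called lower was above that of all genes and the share called higher below it, and over 9 genes such shares rest on few calls. Their median log2 change was -0.59 with oleic acid and -0.45 with palmitic acid in wild-type astrocytes, where the medians of all genes were 0.0 and -0.08. With palmitic acid in knockout astrocytes the members' median was -0.92 and that of all genes -0.47, so changes there are read against that shift. With median-ratio scaling the median of all genes was -0.08, and 3 members were called higher and 5 lower. Calls over all genes split into 3222 higher and 8946 lower, or 5759 and 6260 with median-ratio scaling. The change with a treatment differed between genotypes for 2 members upward (11.6% of all genes) and 2 downward (6.95%) with medium, for 5 upward (13.8%) and 2 downward (15.8%) with oleic acid, and for 1 upward (14.3%) and 5 downward (43.2%) with palmitic acid, or 3 and 5 with median-ratio scaling. For the palmitic acid difference all genes split into 2319 upward and 6985 downward, or 4639 and 4257 with that scaling. Adora2a is among the 2 members downward with oleic acid, and among the 3 upward with palmitic acid under that scaling.

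**Figure D1:**
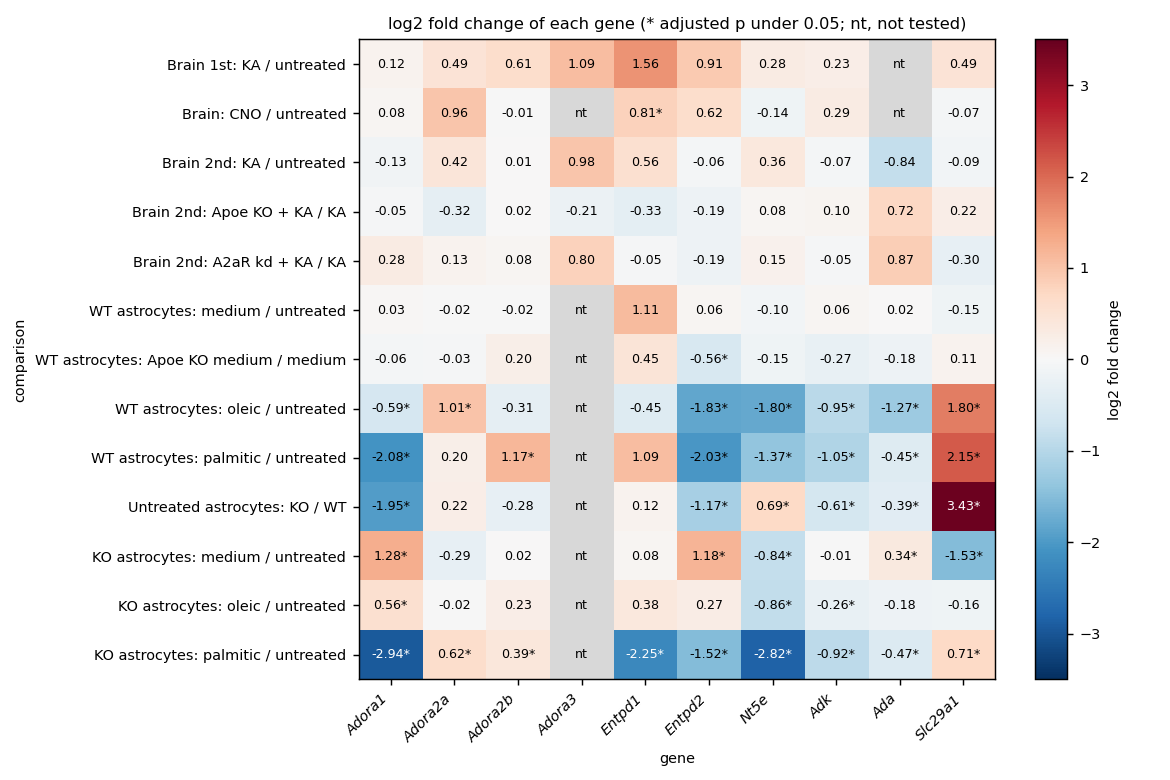
Log2 fold changes of the 10 genes in 13 comparisons, with an asterisk where the adjusted p was under 0.05 and nt where the gene was not tested. Brain comparisons hold 1 asterisk, for Entpd1 with CNO, while Slc29a1 reaches 3.43 between untreated knockout and wild-type astrocytes. Fold changes are on the log2(TPM + 1) scale except in the second brain cohort, where they come from counts.

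Adora2a, on chromosome 10 at 75316877 to 75334784 in the GENCODE M21 annotation of mm10, is the gene named by the knockdown label, and it was low in every brain library. In the libraries labelled A2aR knock down it stood at 1.75, 2.15 and 1.89 TPM, with 162, 181 and 171 counts. The KA libraries had 1.95, 2.90, 1.32 and 2.26 TPM, with 173, 237, 114 and 117 counts. The groups overlapped, with every labelled library inside the range of the KA libraries. The mean was 1.93 ± 0.203 TPM (SD, n = 3) against 2.11 ± 0.657 (SD, n = 4), and in edgeR the log2 difference was 0.13 ± 0.39 (SE, adjusted p = 0.963), with a 95% interval of -0.72 to 0.98. Mean TPM and counts differed in direction here, and the KA libraries with 114 and 117 counts had 1.32 and 2.26 TPM. The knock down label was thus not matched by a lower Adora2a level in whole tissue, and a fall within a minority of cells cannot be told apart from no fall. Directions in this comparison are those of the libraries as labelled.

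Elsewhere in brain Adora2a was between 0.96 and 6.46 TPM. Untreated brains of the second cohort had 1.07, 2.35 and 0.96 TPM, and Apoe knockout brains with KA had 3.53, 1.76 and 1.25, both overlapping the KA brains (adjusted p = 0.947 and 0.887 in edgeR). In the first cohort untreated brains had 1.60, 1.80 and 2.2 TPM and KA brains 3.55, 4.04 and 1.80, again with overlap (log2 0.49 ± 0.28 SE, adjusted p = 0.498 in limma). The CNO set differed most: 2.15, 1.5 and 1.51 TPM in untreated and 6.46, 2.45 and 4.69 in CNO brains, with no overlap. The log2 difference of 0.96 ± 0.28 (SE) did not pass the test (adjusted p = 0.134 in limma). It passed when the replicate number was a block (0.96 ± 0.21 SE, adjusted p = 0.0486), but the labels do not say that this number pairs libraries. The 10 markers of striatal projection neurons, led by Penk and Ppp1r1b, summed to 158.6 to 205.3 TPM in untreated and 233.2 to 340.5 in CNO brains, none of them at 0. Most of them did not pass: 2 of the 10 were called higher, and their median log2 difference was 0.11 against 0.04 for all genes. Their part in the result was not tested.

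In astrocytes Adora2a was under 1 TPM in most groups and rose in 2. It reached 1 TPM only in wild-type libraries with oleic acid and in knockout libraries with palmitic acid. Adora2a thus passed the filter on low values, and was tested in astrocytes, only through the groups where it was high. Untreated wild-type libraries had 0.18, 0.20 and 0.59 TPM, those with medium from neurons 0.50, 0.11 and 0.31, and those with medium from Apoe knockout neurons 0.21, 0.46 and 0.17. With oleic acid it was at 1.58, 1.78 and 1.55 TPM, above every untreated library, and the log2 difference was 1.01 ± 0.14 (SE, adjusted p = 2.27e-06 in limma). With palmitic acid it was at 0.52, 0.49 and 0.51 TPM, inside the untreated range (log2 0.20, adjusted p = 0.219). Knockout astrocytes had 0.67, 0.60 and 0.33 TPM untreated, 0.47, 0.18 and 0.13 with medium, 0.53, 0.57 and 0.42 with oleic acid and 1.28, 1.34 and 1.40 with palmitic acid. The palmitic acid rise was 0.62 ± 0.14 on the log2 scale (SE, adjusted p = 0.000388), and oleic acid gave -0.02 ± 0.14 (adjusted p = 0.924). The oleic acid change differed between genotypes, by -1.03 ± 0.19 in knockout relative to wild-type (SE, adjusted p = 0.000335). For palmitic acid the difference of 0.42 ± 0.19 did not pass (adjusted p = 0.0733), but did with median-ratio scaling (0.71 ± 0.20, adjusted p = 0.00428) or without wild-type untreated library 1 (adjusted p = 0.0476). At these levels single libraries decided other calls too. Without wild-type untreated library 3, at 0.59 TPM, the palmitic acid change (adjusted p = 0.0464) and the genotype difference (0.0481) passed, and without knockout medium library 1 the change with medium did (-0.40, adjusted p = 0.0471).

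Adora1 encodes the A1 receptor and lies on chromosome 1 at 134199223 to 134235431. It was the most abundant receptor gene of the 4 in every group of brain libraries, and in every astrocyte group but knockout with palmitic acid. In brain it passed no test. The first cohort had 121, 123 and 63.8 TPM in untreated and 111, 106 and 104 in KA libraries, the low value being that of the library that stood apart. The log2 difference was 0.12 ± 0.27 (SE, adjusted p = 0.811 in limma) with that library and -0.19 ± 0.06 (adjusted p = 0.151) without it, and -0.18 ± 0.16 with median-ratio scaling, so its direction was not settled. The CNO set had 119, 109 and 108 TPM untreated and 123, 123 and 109 with CNO (adjusted p = 0.735). In the second cohort untreated brains had 77, 101 and 94.9 TPM, KA brains 69.2, 77.2, 89.9 and 73.7, and Apoe knockout brains with KA 79.3, 65.1 and 80.3. The libraries labelled A2aR knock down had 107.9, 69.4 and 108.1 TPM, of which 2 lay above all KA libraries. The log2 difference from KA was 0.28 ± 0.13 (SE, adjusted p = 0.533 in edgeR), and the groups overlapped.

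In astrocytes Adora1 fell with both fatty acids and with loss of Apoe. Untreated wild-type libraries had 40.7, 48.9 and 47.9 TPM, and those given medium from normal or from Apoe knockout neurons lay between 39.4 and 51.1. With oleic acid it was at 30.3, 30.6 and 29.3 TPM, a log2 change of -0.59 ± 0.12 (SE, adjusted p = 0.000364 in limma). With palmitic acid it was at 11.8, 10.8 and 8 TPM, 4.49-fold below the untreated mean (log2 -2.08 ± 0.12, adjusted p = 4.2e-12). Untreated knockout libraries had 10.9, 11.0 and 11.4 TPM, 4.13-fold below untreated wild-type (log2 -1.95 ± 0.12, adjusted p = 1.96e-11). None of these groups overlapped the untreated wild-type libraries. Untreated knockout and wild-type palmitic acid libraries did overlap each other.

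From that low level Adora1 rose in knockout astrocytes given medium, to 30.3, 27.3 and 27.9 TPM (log2 1.28 ± 0.12 SE, adjusted p = 4.16e-08), and given oleic acid, to 13.6, 18.3 and 18.9 TPM (0.56 ± 0.12, adjusted p = 0.0014). It fell with palmitic acid to 0.47, 0.70 and 0.57 TPM, 19.1-fold below untreated knockout (-2.94 ± 0.12, adjusted p = 6.39e-15). The change with each of the 3 treatments differed between genotypes. Medium gave 0.03 in wild-type and 1.28 in knockout, oleic acid -0.59 and 0.56, and palmitic acid -2.08 and -2.94. The adjusted p-values of these differences were 1.79e-05, 3.27e-05 and 0.000295.

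The summed level of the 8 astrocyte markers was 1091 to 1118 TPM with oleic acid and 650.6 to 797.5 with palmitic acid in wild-type cultures, and 1098 to 1201 with medium, 491.4 to 519.8 with oleic acid and 66.29 to 87.74 with palmitic acid in knockout cultures. All 8 were called lower with loss of Apoe and with palmitic acid in either genotype, and all 8 higher with medium in knockout. With oleic acid 1 was higher and 7 lower in wild-type, and 3 higher and 2 lower in knockout. None of the 8 was at 0 in every library of any group. Per 1000 TPM of these markers the median Adora1 level was 21.3 TPM in untreated wild-type and 22.1 in untreated knockout. It was 27.1 with oleic acid and 14.8 with palmitic acid in wild-type. In knockout it was 24.8 with medium, 36.2 with oleic acid and 7.09 with palmitic acid. On this scale other members changed direction between untreated wild-type and untreated knockout: the median went from 6.51 to 11.5 TPM for Entpd2, from 53.0 to 156 for Adk and from 2.8 to 8.74 for Ada. Palmitic acid also raised the medians of Adk and Ada in wild-type, to 80.6 and 5.81. In knockout it raised those of Adk, Ada and Entpd2, to 481, 39.4 and 17.6. The medians of Entpd2 in wild-type and Nt5e in both genotypes stayed lower with palmitic acid. Medium in knockout lowered that of Ada, to 5.25. The sum is weighted to its highest markers, Gfap, Aqp4 and Slc1a3 in untreated wild-type and Aqp4, Aldh1l1 and Gfap in untreated knockout. With loss of Apoe the median log2 change of the 8 markers was -1.29, against -1.95 for Adora1, -1.17 for Entpd2, -0.61 for Adk and -0.39 for Ada. The part of astrocyte content in the changes of these genes was not tested.

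**Figure D2:**
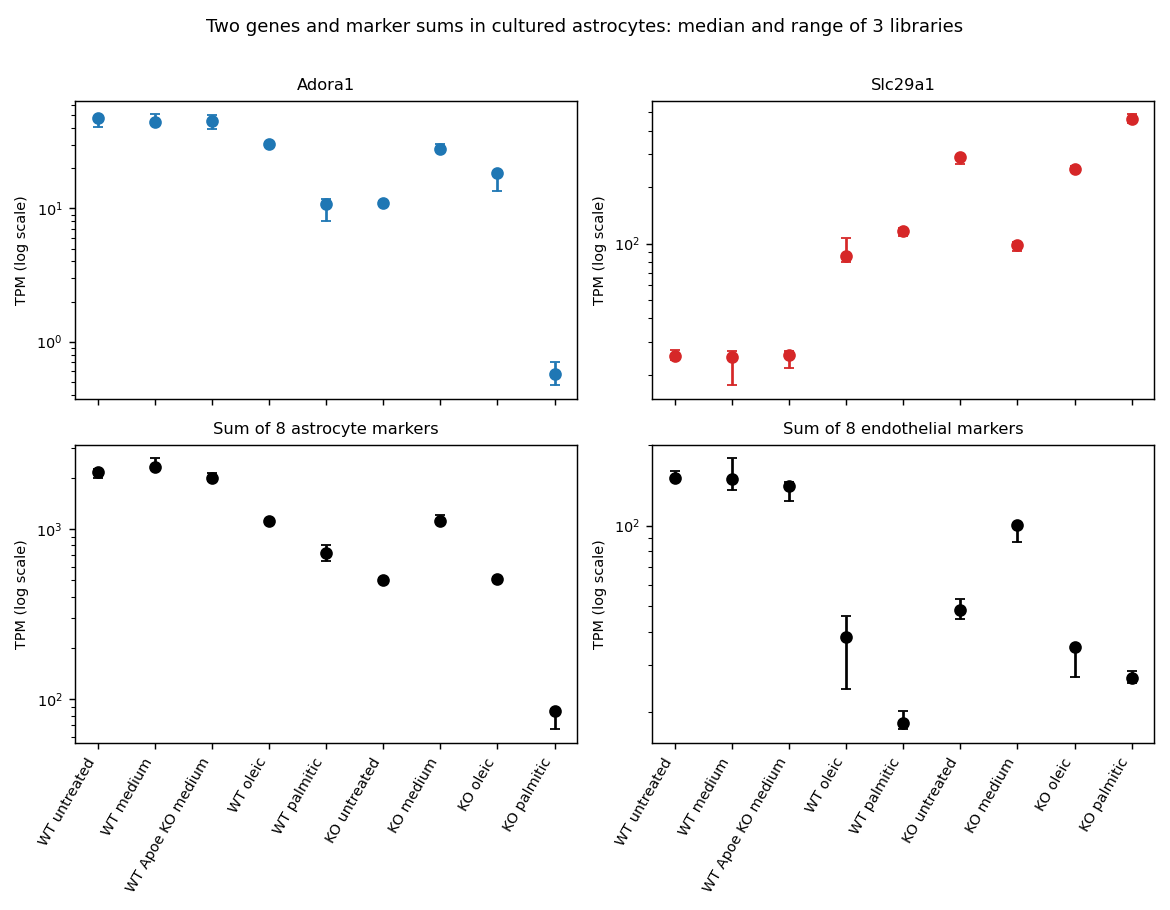
Levels of Adora1 and Slc29a1 and the summed TPM of 8 astrocyte and 8 endothelial markers in the 9 astrocyte groups, on log axes, as median and range of 3 libraries. Adora1 and the astrocyte sum both have their lowest value in knockout cultures with palmitic acid, at medians of 0.57 and 84.59 TPM, where Slc29a1 has its highest.

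Adora2b, the A2b receptor gene on chromosome 11 at 62248984 to 62266453, changed with palmitic acid. Untreated wild-type astrocytes had 1.07, 0.77 and 1.20 TPM and those with palmitic acid 3.40, 3.45 and 3.71, with no overlap (3.47-fold, log2 1.17 ± 0.15 SE, adjusted p = 1.06e-06 in limma). Oleic acid libraries had 0.52, 0.52 and 0.85 TPM and did not pass (-0.31 ± 0.15, adjusted p = 0.0957). In knockout astrocytes the level went from 0.36, 0.85 and 0.79 TPM to 1.01, 1.58 and 0.97 with palmitic acid (0.39 ± 0.15, adjusted p = 0.0264). That smaller rise was lost without knockout palmitic acid library 2 (adjusted p = 0.151) or without untreated knockout library 1 (0.168). The rise was smaller in knockout than in wild-type, by 0.78 on the log2 scale (-0.78 ± 0.22, adjusted p = 0.00473 for the difference), which did not pass with a pseudocount of 0.1 (adjusted p = 0.0694). For oleic acid the difference passed only without knockout oleic acid library 3 (adjusted p = 0.0287), wild-type oleic acid library 3 (0.0461) or wild-type untreated library 2 (0.0475). Microglial markers were at 837.7 to 949.3 TPM in the wild-type palmitic acid libraries, against 374.4 to 422.8 untreated, and at 29.45 to 40.29 in those of knockout. Their part in the Adora2b rise was not tested. In brain Adora2b was between 2.15 and 6.66 TPM and passed no test, and in the first cohort untreated libraries at 3.29, 3.71 and 2.66 TPM lay below KA libraries at 5.48, 6.66 and 4.29 (log2 0.61 ± 0.23 SE, adjusted p = 0.327).

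Adora3, the A3 receptor gene on chromosome 3 at 105870858 to 105908926, had the lowest mean of the 4 receptor genes in every brain group. It was at most 1.41 TPM in the astrocyte libraries, was listed at 0 in all 3 knockout palmitic acid libraries, and did not pass the filter on low values there or in the CNO set. In the first cohort it was at 0.85, 0.51 and 0.44 TPM in untreated and 2.68, 4.13 and 1.05 in KA brains, with no overlap (log2 1.09 ± 0.35 SE, adjusted p = 0.245 in limma). It passed the filter there through the KA libraries alone, where it was high, and did not pass it with median-ratio scaling. With CNO it was at 0.99, 2.69 and 1.71 TPM against 0.44, 0.98 and 0.91 untreated. The second cohort had 0.62, 0.32 and 0.47 TPM untreated and 0.87, 0.54, 1.24 and 1.06 with KA, which overlapped (0.98 ± 0.44 SE from counts, adjusted p = 0.735 in edgeR).

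Entpd1 encodes CD39, which cuts ATP and ADP to AMP and is known as a marker of microglia. The gene lies on chromosome 19 at 40612366 to 40741602. In the CNO set untreated brains had 5.95, 6.67 and 5.78 TPM and CNO brains 11.4, 12.9 and 10.3, with no overlap. The log2 difference was 0.81 ± 0.13 (SE, adjusted p = 0.0175 in limma), 1.88-fold in mean TPM. With no filter on low values the adjusted p was 0.0635, and it was over 0.05 without CNO library 2 (0.0859), CNO library 3 (0.0581), untreated library 1 (0.0543) or untreated library 3 (0.0787). The first cohort had 6.85, 7.24 and 3.45 TPM untreated and 19.5, 30.2 and 10.5 with KA, also with no overlap. That log2 difference, 1.56 ± 0.42 (SE), did not pass (adjusted p = 0.177), nor did it without the untreated library that stood apart (1.27 ± 0.39, adjusted p = 0.13). In the second cohort untreated brains had 7.77, 5.17 and 5.79 TPM and KA brains 6.18, 6.84, 5.30 and 11.5, which overlapped (0.56 ± 0.28 SE from counts, adjusted p = 0.776 in edgeR).

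The 11 microglial markers, led by C1qa, C1qb and Ctss, summed to 456.4 to 529.2 TPM in untreated and 1232 to 1573 in CNO brains, to 510.6 to 634.3 and 1371 to 3547 in the first KA cohort, and to 425.4 to 492 and 557 to 955.1 in the second, none of them at 0. All 11 were called higher with CNO and none in either KA cohort. In the KA cohorts 11 and 9 had an unadjusted p under 0.05 in limma and edgeR, against 2069 of 15331 and 1566 of 23318 genes. The part of these markers in the Entpd1 differences was not tested. In astrocytes single Entpd1 libraries stood far from their groups: 57.1 TPM against 6.62 and 7.74 with palmitic acid in wild-type, and 37.9 against 6.70 and 12.5 with medium. Microglial markers were at 837.7 to 949.3 and 348.7 to 410.4 TPM in those 2 groups. Without the palmitic acid library at 6.62 TPM, library 2, the palmitic acid change passed (1.61 ± 0.63, adjusted p = 0.0344), which rests on the library at 57.1 TPM. With all libraries the change that passed was the fall with palmitic acid in knockout astrocytes, from 4.46, 13.4 and 5.58 TPM to 0.23, 0.56 and 1.53 (log2 -2.25 ± 0.59 SE, adjusted p = 0.0018 in limma). There the microglial sum went from 317.8 to 351.8 TPM untreated to 29.45 to 40.29. When only the 2 groups compared entered the fit, the low oleic acid libraries of wild-type astrocytes, at 4.62, 4.23 and 4.39 TPM against 6.13, 6.82 and 6.24 untreated, passed as well (-0.45 ± 0.10, adjusted p = 0.00874).

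Entpd2, whose product prefers ATP as its substrate, lies on chromosome 2 at 25395874 to 25401321. In astrocytes it was 13, 14.2 and 14.3 TPM untreated in wild-type, and it fell to 3.41, 3.67 and 2.52 with oleic acid and to 3.29, 2.40 and 2.27 with palmitic acid. These were 4.33-fold and 5.22-fold falls in mean TPM (log2 -1.83 ± 0.13 and -2.03 ± 0.13 SE, adjusted p = 1.13e-10 and 9.12e-12 in limma), with no overlap. Untreated knockout astrocytes had 5.75, 4.80 and 6.34 TPM, below wild-type (-1.17 ± 0.13, adjusted p = 1.08e-07), and not below it per astrocyte-marker TPM. Medium brought 13.4, 13.6 and 15 TPM in knockout (1.18 ± 0.13, adjusted p = 2.05e-07), oleic acid 7.16, 7.08 and 6.71 (0.27 ± 0.13, adjusted p = 0.0885) and palmitic acid 1.17, 1.64 and 1.12 (-1.52 ± 0.13, adjusted p = 6.76e-10). Per astrocyte-marker TPM the knockout palmitic acid libraries were not below untreated knockout. The oleic acid change was -1.83 in wild-type and 0.27 in knockout, and that difference passed the test (2.10 ± 0.18, adjusted p = 9.08e-09).

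Wild-type astrocytes given medium from Apoe knockout neurons had Entpd2 at 9.15, 9.98 and 9.34 TPM, below 16.5, 15 and 12.2 with medium from normal neurons (log2 -0.56 ± 0.13 SE, adjusted p = 0.0279 in limma). This call was lost with a pseudocount of 0.1 (adjusted p = 0.0953), in a fit of only those groups (0.0793), and without any 1 of 5 of the 6 libraries (0.0612 to 0.174). In the first brain cohort Entpd2 was at 15.6, 16.8 and 11.1 TPM with KA against 7.50, 6.52 and 7.38 untreated, with no overlap, and did not pass (0.91 ± 0.22, adjusted p = 0.144). With CNO it was at 18.1, 14.5 and 15.5 TPM against 12.2, 7.76 and 10.7 (0.62 ± 0.17, adjusted p = 0.117), and passed with the replicate block (adjusted p = 0.0374), a pairing that the labels do not give. The 8 astrocyte markers, led by Gfap with CNO, summed to 1043 to 1155 TPM in untreated and 3108 to 3544 in CNO brains. Of the 8, 4 were called higher, with a median log2 difference of 0.45, and their part in the Entpd2 difference was not tested. In the second cohort the 4 groups lay between 11.6 and 21.6 TPM and overlapped.

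Nt5e encodes CD73, which makes adenosine from AMP, and lies on chromosome 9 at 88327197 to 88372092. Of the enzyme genes, Nt5e rose with loss of Apoe: untreated wild-type astrocytes had 7.97, 7.11 and 6.21 TPM and untreated knockout 13.1, 10.6 and 12.6 (log2 0.69 ± 0.14 SE, adjusted p = 0.000297 in limma). All 3 treatments lowered it in knockout. Medium left 6.98, 6.00 and 5.92 TPM (-0.84 ± 0.14, adjusted p = 5.97e-05), oleic acid 5.58, 6.68 and 6.38 (-0.86 ± 0.14, adjusted p = 6.94e-05) and palmitic acid 0.57, 1.12 and 0.89, a 14.1-fold fall (-2.82 ± 0.14, adjusted p = 9.63e-14). In wild-type, oleic acid gave 1.72, 0.85 and 1.49 TPM (-1.80 ± 0.14, adjusted p = 6.2e-10) and palmitic acid 2.2, 1.94 and 2.23 (-1.37 ± 0.14, adjusted p = 2.2e-08). With medium wild-type cells had 7.66, 5.93 and 6.10 TPM, overlapping the untreated libraries. Brain levels were 0.70 to 2.65 TPM, and Nt5e passed no test there.

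**Figure D3:**
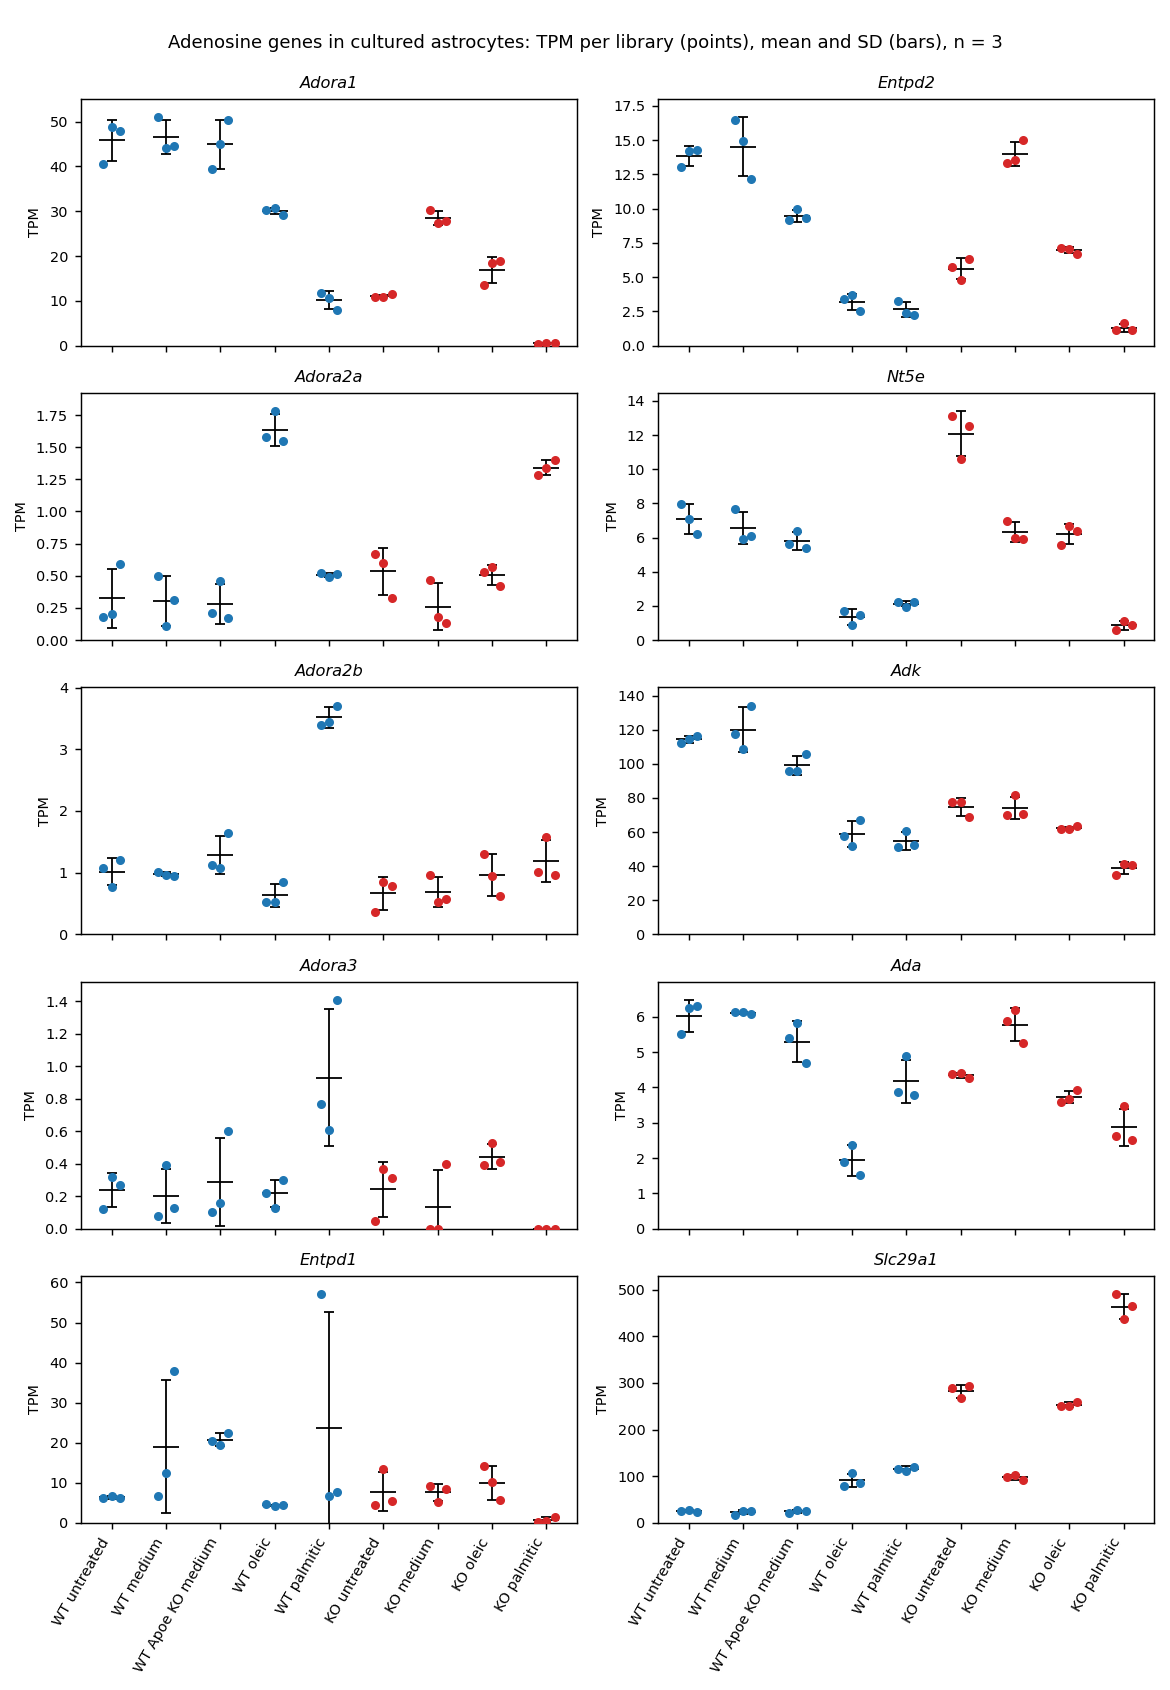
TPM of the 10 genes in each of the 27 astrocyte libraries, by group, with mean and SD (n = 3), wild-type in blue and Apoe knockout in red. Slc29a1 rises from 23.9 to 27.0 TPM in untreated wild-type to 437 to 490.1 in knockout with palmitic acid, while Adora1, Entpd2, Nt5e and Adk are lowest in that group.

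Adk encodes adenosine kinase, which turns adenosine into AMP inside cells, and lies on chromosome 14 at 21052574 to 21448569. In untreated wild-type astrocytes it was at 112, 115 and 116 TPM, the highest level of the 10 genes there. Oleic acid lowered it to 57.9, 52.1 and 67.3 TPM (log2 -0.95 ± 0.09 SE, adjusted p = 2.28e-08 in limma) and palmitic acid to 51.4, 60.8 and 52.4 (-1.05 ± 0.09, adjusted p = 2.8e-09). Untreated knockout astrocytes had 77.8, 77.8 and 68.6 TPM (-0.61 ± 0.09, adjusted p = 1.29e-05), while per 1000 TPM of astrocyte markers Adk was higher there. Medium left 70.3, 81.7 and 70.8 TPM there, overlapping untreated knockout, with a 95% interval of the log2 difference of -0.20 to 0.18. Oleic acid left 61.6, 62.0 and 63.3 TPM (-0.26 ± 0.09, adjusted p = 0.0329), a call lost with no filter on low values (0.0581) and without any 1 of 5 of the 6 libraries (0.0587 to 0.105). Palmitic acid left 34.9, 41.1 and 40.7 TPM (-0.92 ± 0.09, adjusted p = 1.34e-08). With median-ratio scaling that fall was -0.37 ± 0.09 (adjusted p = 0.000613). Per astrocyte-marker TPM Adk was higher with palmitic acid than untreated in both genotypes. In brain Adk was at 45.6 to 102.4 TPM, with the highest value in 1 CNO library, and passed no test.

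Ada encodes adenosine deaminase, which turns adenosine into inosine, and lies on chromosome 2 at 163726584 to 163750239. It fell with oleic acid in wild-type astrocytes, from 5.50, 6.26 and 6.31 to 1.89, 2.38 and 1.52 TPM (log2 -1.27 ± 0.11 SE, adjusted p = 4.68e-09 in limma), and with palmitic acid to 3.86, 4.88 and 3.78 (-0.45 ± 0.11, adjusted p = 0.00169). Untreated knockout astrocytes had 4.37, 4.40 and 4.26 TPM (-0.39 ± 0.11, adjusted p = 0.00665), and Ada too was higher there per astrocyte-marker TPM. With medium they had 5.87, 6.19 and 5.27 (0.34 ± 0.11, adjusted p = 0.024), a call lost without any 1 of 5 of the 6 libraries (0.0513 to 0.095). With oleic acid they had 3.59, 3.68 and 3.92 TPM (-0.18 ± 0.11, adjusted p = 0.215). With palmitic acid they had 2.63, 3.46 and 2.51 (-0.47 ± 0.11, adjusted p = 0.000674), which became -0.04 ± 0.11 (adjusted p = 0.753) with median-ratio scaling. Per astrocyte-marker TPM Ada was higher with palmitic acid than untreated in both genotypes. In brain Ada was between 0.26 and 3.44 TPM. It did not pass the filter on low values in the first cohort or the CNO set, and 1 library labelled A2aR knock down held the highest value.

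Slc29a1 encodes the equilibrative nucleoside transporter ENT1, which carries adenosine across the membrane down its gradient, and lies on chromosome 17 at 45585200 to 45599606. It had the largest rise of the 9 tested genes in astrocytes. Untreated wild-type libraries had 25.0, 27.0 and 23.9 TPM, and those given medium from normal neurons 17.6, 24.9 and 26.7 or from Apoe knockout neurons 21.8, 26.8 and 25.6. Oleic acid libraries had 80.2, 107.7 and 86.0 TPM, 3.61-fold above untreated (log2 1.80 ± 0.12 SE, adjusted p = 3.1e-11 in limma). Palmitic acid libraries had 117, 110.4 and 121 TPM, 4.58-fold above (2.15 ± 0.12, adjusted p = 6.96e-13). Untreated knockout libraries had 289, 267 and 293 TPM, 11.2-fold above untreated wild-type (3.43 ± 0.12, adjusted p = 4.58e-16), and they also lay above both fatty acid groups of wild-type.

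In knockout astrocytes medium lowered Slc29a1 to 98.6, 102 and 91.7 TPM (log2 -1.53 ± 0.12 SE, adjusted p = 9.88e-10), a level among those of wild-type cells with oleic acid. Oleic acid left 249.7, 250.2 and 260.3 TPM, just below untreated (-0.16 ± 0.12, adjusted p = 0.288), and passed in a fit of only those groups (adjusted p = 0.029). Palmitic acid raised it to 490.1, 437 and 464 TPM (0.71 ± 0.12, adjusted p = 1.09e-05), or by 1.27 ± 0.15 with median-ratio scaling. The change with each treatment differed between genotypes, by -1.38, -1.96 and -1.44 on the log2 scale in knockout relative to wild-type for medium, oleic acid and palmitic acid (adjusted p = 2.15e-06, 6.17e-09 and 2.27e-07). The summed level of the 8 endothelial markers, led by Slco1a4, was 147.8 to 159.8 TPM in untreated wild-type, 44.53 to 53.07 in untreated knockout and 17.27 to 20.3 in wild-type with palmitic acid, and 1 of them was at 0 in each of those groups. The single markers did not move together: of 6 tested, 3 were called higher and 3 lower with loss of Apoe, and 2 higher and 3 lower with palmitic acid in wild-type. Their part in the Slc29a1 changes was not tested.

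Brain showed no such rise in Slc29a1. The first cohort had 14.8, 15.7 and 13.5 TPM untreated and 18.5, 24.2 and 20.8 with KA, with no overlap (log2 0.49 ± 0.18 SE, adjusted p = 0.316 in limma), and 0.21 ± 0.18 with median-ratio scaling. CNO brains, at 20.2, 14.4 and 24.0 TPM, overlapped untreated ones at 23.6, 15.8 and 21.7. In the second cohort untreated brains had 29.6, 39.5 and 33.6 TPM, KA brains 38.0, 39.5, 34.3 and 27.3, and Apoe knockout brains with KA 34.1, 34.8 and 38.2. Knockout and KA brains overlapped (log2 0.22 from counts, 95% interval -0.05 to 0.49). The libraries labelled A2aR knock down had 27.1, 25.6 and 19.7 TPM, each below all KA libraries. Slc29a1 was the 1 member of 10 whose TPM did not overlap in that comparison, where 7.76% of all genes were lower without overlap. In counts, which the test used, the groups did overlap, also when scaled by library total. The labelled libraries had 1634, 1450 and 1209 counts, and the KA libraries 1939, 1947, 1775 and 1524. The log2 difference was -0.30 ± 0.13 (SE, adjusted p = 0.506 in edgeR), so it did not pass the test.

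**Figure D4:**
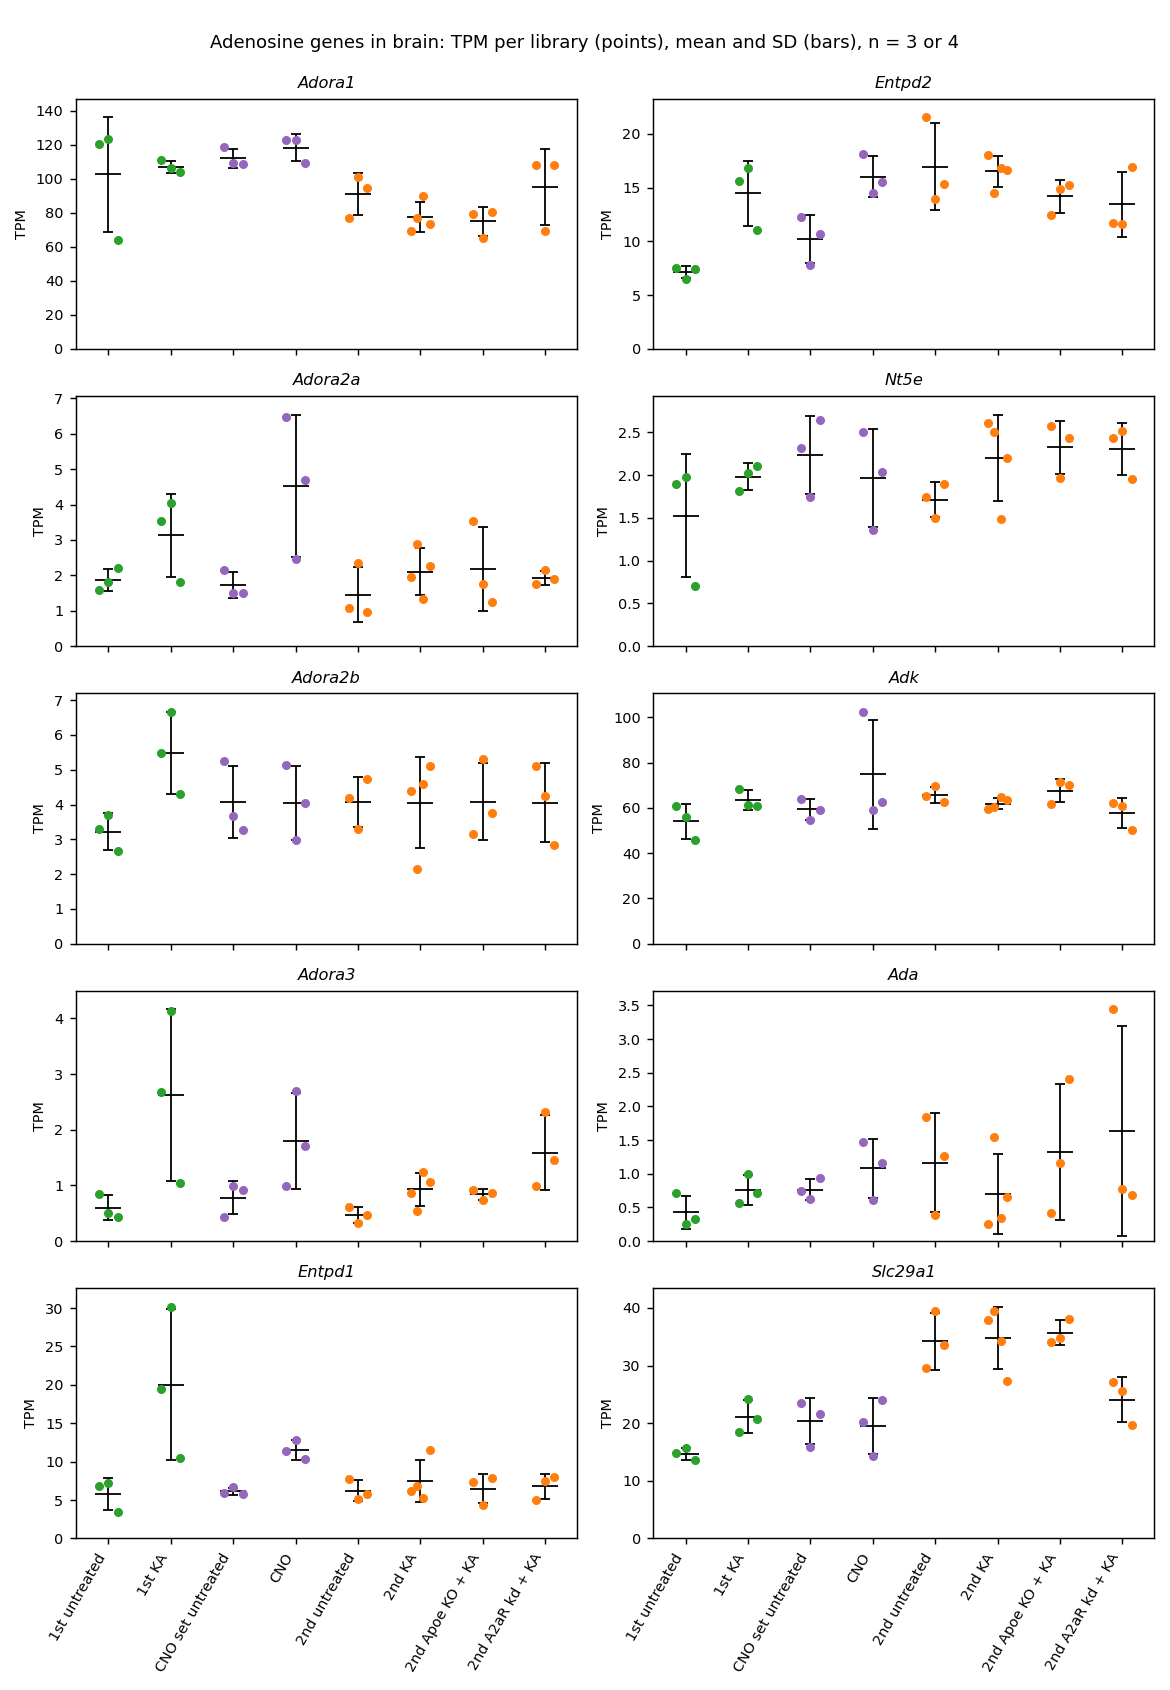
TPM of the 10 genes in each of the 25 brain libraries, by group, with mean and SD (n = 3, or 4 for KA in the second cohort), colored by cohort. Adora2a in the libraries labelled A2aR kd lies at 1.75 to 2.15 TPM, inside the 1.32 to 2.90 TPM of the KA libraries. Entpd1 is higher without overlap with KA in the first cohort, which did not pass the test, and with CNO, which did.

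Across the brain comparisons, 5 of the 10 members did not overlap between KA and untreated brains in the first cohort, all of them higher with KA, against 22.7% of all genes, where the median of all genes was 0.25. Adora3, among these, passed the filter on low values through the KA libraries alone. With CNO 4 members did not overlap, all higher, against 15.6% of all genes that passed that filter. Adora3, among these 4, did not pass it in the CNO set. Without the library that stood apart the first cohort still called no member.

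Of 45 other genes of purine signalling, listed by role, 30 to 41 could be tested in a table. In brain 2 passed, both higher with CNO, where 32 were tested and 3.46% of all genes were higher. Both are receptors of nucleotides known from microglia: P2ry12 was at 59.1 ± 3.05 against 34.4 ± 3.79 TPM (SD, n = 3 each, log2 0.77, adjusted p = 0.0103 in limma) and P2ry6 at 6.86 ± 1.25 against 2.69 ± 0.535 (1.09, adjusted p = 0.0211). Neither medium called any of 31 in wild-type astrocytes. Of all genes, 0.0371% were called with normal medium. Medium of neurons lacking Apoe, against normal medium, called 156 higher and 73 lower of 16161. Oleic acid called 15 of the 31 higher and 6 lower, where 31.2% and 28.6% of all genes were called. Palmitic acid called 12 higher and 11 lower, against 26.8% and 33.1% of all genes, which is near the background. P2rx4, an ATP-gated channel, rose with oleic acid from 16.6 ± 1.64 to 46.4 ± 1.73 TPM, and P2ry2, a receptor of ATP and UTP, rose with palmitic acid from 27.0 ± 1.02 to 80.1 ± 3.98. P2ry1, an ADP receptor, fell with both, from 22.4 ± 1.68 to 10 ± 1.55 and to 5.69 ± 0.65 TPM.

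Loss of Apoe called 5 of the 31 higher and 8 lower, near the 23.9% and 21.1% of all genes. Ahcy, which releases adenosine from S-adenosylhomocysteine, rose from 50.3 ± 0.998 to 96.8 ± 1.77 TPM (log2 0.93 ± 0.06 SE, adjusted p = 3.67e-11 in limma), and Ampd3, an AMP deaminase, fell from 19.8 ± 0.754 to 8.09 ± 0.342 (-1.19 ± 0.09, adjusted p = 6.58e-10). In knockout astrocytes medium called 8 higher and 4 lower, against 18.7% and 12.6% of all genes. Oleic acid called 11 higher and 1 lower (21.7% and 20.1%), and palmitic acid 8 and 18 (19.9% and 55.4%). Medium took P2ry1 from 5.53 ± 1.02 to 16 ± 1.20 TPM and Ahcy from 96.8 ± 1.77 to 64.7 ± 3.04. With palmitic acid P2ry1 fell to 0.287 ± 0.101 TPM and P2rx7, another ATP-gated channel, from 20.1 ± 3.42 to 5.22 ± 0.532. The members and these genes share libraries, so their changes are not independent.

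Genes whose level followed Adora2a most closely were ranked by Pearson's r of log2(TPM + 1), as a description. Over the 27 astrocyte libraries and 16161 genes they were Tmem63b (r = 0.917), 5031439G07Rik (0.898), C2cd2l (0.898), H2-DMb1 (0.892) and Gm43860 (0.889). Differences between the 9 groups enter these values. Over the 13 libraries of the second cohort and 19035 genes they were Prr5l, which came first, Slc39a3 (0.796), AI987944 (0.795), Alg9 (0.779) and Gm13301 (0.777). No gene was in both lists.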

How the data were processed

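An Illumina TruSeq kit was used on 1 ug of RNA per library, per the labels' protocols. The tools HISAT2, RSEM and StringTie and the build mm10 stand in the list of tools, per the submitters' processing notes. The authors deposited TPM per gene in 4 tables, and for the second brain cohort also whole-number counts. The sources used here do not give pooling, filters or the strand setting. The members, gene lists and tests were chosen with earlier results of these data known.

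Every fit ran over the whole table. TPM were tested with limma 3.58.1 (R 4.3.3) after adding a pseudocount of 1 and taking log2, with the trend option of its empirical Bayes step. Genes had to reach 1 TPM in 3 or more libraries. Such fold changes of low genes understate the change. For counts the quasi-likelihood test of edgeR 4.0.16 was run, scaled by TMM, after its own filter. Second-cohort fold changes are from counts, and levels are TPM, so the pair can differ in sign. All groups of a table shared 1 estimate of spread in the second cohort and the astrocytes. P-values were adjusted by Benjamini-Hochberg over all genes of a comparison, with a threshold of 0.05. Intervals of fold changes are 95%. Tests were two-sided.

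All 10 members are named in each comparison. Of the 45 listed pathway genes at most 6 per comparison, those past the threshold with the smallest p, could be named, and the 5 genes most like Adora2a. In the CNO set the 3 same-numbered pairs of libraries had deviations from the group means that correlated at 0.119 to 0.244. In the other sets such correlations went from -0.102 to 0.166, and over so few libraries they do not settle whether numbers pair libraries. The labels name no shared animal or day. Alternatives were another scaling (median ratio for TPM, DESeq2 1.42.0 size factors for counts), the DESeq2 test, a pseudocount of 0.1, no filter, a replicate block, only the groups compared, and leaving out each library. The fits were tested on simulated data. No library looked deposited more than once. A gene of the microglial marker list is not reported here and was left out of its sums.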

Additional observations from a re-analysis of the deposited data

Results flagged for a closer look

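In cultured astrocytes the change with a treatment differed between Apoe knockout and wild-type cells for several of these genes, by a test of the difference itself (the interaction term of limma, adjusted p under 0.05). Each value is the log2 change in knockout minus that in wild-type. For medium from neurons the differences were 1.26 for Adora1, 1.12 for Entpd2, -0.74 for Nt5e and -1.38 for Slc29a1. For oleic acid they were 1.14 for Adora1, -1.03 for Adora2a, 2.1 for Entpd2, 0.94 for Nt5e, 0.69 for Adk, 1.09 for Ada and -1.96 for Slc29a1. For palmitic acid they were -0.86 for Adora1, -0.78 for Adora2b, -3.33 for Entpd1, 0.51 for Entpd2, -1.45 for Nt5e and -1.44 for Slc29a1. Those of Nt5e for medium (adjusted p = 0.0656) and of Adora2b (0.0694) and Entpd2 (0.229) for palmitic acid did not pass with a pseudocount of 0.1, nor did that of Entpd2 with the replicate block (0.0798) or without knockout palmitic acid library 2 (0.0579), knockout untreated library 2 (0.0627) or wild-type palmitic acid library 3 (0.0556). The median of all genes was -0.35 for palmitic acid. With median-ratio scaling the palmitic acid differences were above 0 for 3 members and below 0 for 5, against 1 and 5, since Adora2a (0.71) and Adk (0.6) then passed. The same untreated libraries enter all 3 differences. Adora2a passed the filter on low values only through the astrocyte groups where it was high.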

How the results depend on the processing

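No called value changed sign under any alternative run, and values that changed sign without ever being called were counted as keeping their side of the threshold. The count of members called moved by more than 1.5 times in 2 comparisons. For CNO (1 called) it was 0 with no filter on low values, 3 with the replicate block, and 0 to 1 when each library was left out. For medium from Apoe knockout neurons (1 called) it was 0 with a pseudocount of 0.1, 0 in a fit of only those groups, 0 with the replicate block, and 0 to 1 when each library was left out. Elsewhere the counts stayed within 1.5 times of those given. Leaving out each library gave 7 to 7 members for oleic acid and 7 to 8 for palmitic acid in wild-type astrocytes, 6 to 7 for loss of Apoe, and 4 to 5, 2 to 3 and 8 to 9 for medium, oleic acid and palmitic acid in knockout astrocytes. For the differences between genotypes it gave 4 to 4, 7 to 8 and 5 to 7, and 0 in the other brain comparisons and for medium on wild-type cells.

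Over single genes and alternatives other than left-out libraries, 323 values kept their side of the threshold, 11 lost it and 8 gained it. With a library left out, 517 kept it, 24 lost it and 8 gained it. Apart from the CNO set, replicate numbers gave correlations from -0.102 to 0.166. The replicate block moved no count by over 1.5 times beyond those given above. No block could be made for the libraries labelled A2aR knock down, which share 1 number with the KA libraries. The depth of the TPM tables is unknown, and Adora2a, Adora3 and Ada were low in brain, so small changes in them were not detectable.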
